A study of Mus musculus with 2 samples.

Results

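Immunoglobulin constant genes were followed through the tumor-infiltrating immune cells of mice with and without myeloid 6-phosphogluconate dehydrogenase (6PGD). The 9 genes were taken by name from the 32285 genes of the count table: the heavy chain genes Ighm, Ighd, Ighg1, Ighg2b and Igha, the light chain genes Igkc, Iglc2 and Iglc3, and Jchain. Their values did not enter the cell classes, since all 393 immunoglobulin genes and Jchain were left out of the clustering. The control mice carried Pgd fl/fl, with both Pgd alleles flanked by loxP sites and no Cre. The other mice were Pgd fl/fl LysMCre, in which Cre is driven by Lyz2 and acts in myeloid cells such as macrophages, monocytes and neutrophils, so that their B cells are not the intended target. Female mice 6 to 12 weeks old received 500000 cells of AT3, a mouse mammary tumor line, in the mammary fat pad, and on day 30 the live CD45+ cells of the tumors were sorted. The tumors of 10 mice per genotype were pooled, each pool was tagged with its own oligonucleotide and gave 1 library, and both pools were loaded on the 10x Genomics instrument together. The labels call the control WT and the other library 6PGDKO. They also name a CD11b+ sort, while T cells, which lack that marker as a rule, were 33.7% and 25.5% of the kept cells. Each genotype had a single library and nothing to check it against, so differences between genotypes carry only exact 95% intervals that cover counting error.

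An antibody has a pair of heavy and a pair of light chains, and the constant genes encode the part of each chain that all antibodies of a class share. A B cell first joins variable, diversity and joining segments ahead of Ighm, and a mature naive B cell makes IgM and IgD by splicing the same rearranged transcript to Ighm or Ighd. Class switching then brings Ighg1, Ighg2b or Igha next to the rearranged variable region. Light chains come from either the kappa locus or the lambda loci. Jchain encodes the small protein that joins IgM and IgA into polymers, and it is high in plasma cells, the antibody-secreting end stage. Constant genes can also be transcribed without a joined variable region, from their own upstream promoters, and such transcripts are known in cells other than B cells. UMI counts of constant genes do not separate these forms.

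In the RefSeq annotation of GRCm38.p6, the assembly behind the mm10 build of the files, the heavy chain genes lay on chromosome 12: Ighm (ENSMUSG00000076617) at 113418826 to 113422730, Ighd at 113407535 to 113416324, Ighg1 at 113326541 to 113330523, Ighg2b at 113304314 to 113307933, and Igha at 113256204 to 113260236. Igkc lay on chromosome 6 at 70726435 to 70726754. Iglc2 lay on chromosome 16 at 19198536 to 19198852, Iglc3 on chromosome 16 at 19065365 to 19065681, and Jchain on chromosome 5 at 88519809 to 88527897. RefSeq lists the first 8 as C regions and Jchain as protein coding.

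The sequences of Iglc2 and Iglc3 are shown because the genes are near-identical copies, so their reads can be split or lost between them in counting. Over the 315 coding bases, stop codon included, of the GENCODE vM39 transcripts, 11 bases differed, an identity of 96.5%. The first 300 bases, which hold all 11, are printed 5′ to 3′, and capitals in Iglc3 mark the bases that differ from Iglc2.
Iglc2: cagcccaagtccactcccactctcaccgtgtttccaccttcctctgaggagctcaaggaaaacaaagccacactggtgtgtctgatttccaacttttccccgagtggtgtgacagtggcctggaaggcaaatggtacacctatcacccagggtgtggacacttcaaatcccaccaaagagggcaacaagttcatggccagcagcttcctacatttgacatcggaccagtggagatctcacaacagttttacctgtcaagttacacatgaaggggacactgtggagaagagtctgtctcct
Iglc3: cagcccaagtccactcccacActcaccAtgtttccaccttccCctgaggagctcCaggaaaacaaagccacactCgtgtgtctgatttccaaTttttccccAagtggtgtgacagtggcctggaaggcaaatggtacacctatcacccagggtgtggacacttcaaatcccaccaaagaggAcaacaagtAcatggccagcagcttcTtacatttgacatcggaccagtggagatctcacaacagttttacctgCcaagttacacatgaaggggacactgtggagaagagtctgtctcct
Values of Iglc2 and Iglc3 are therefore uncertain as single genes, and their sum with Iglc1 was used for light chain calls.

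After filtering, 3565 Pgd fl/fl cells with a median of 5554 UMIs and 2798 Pgd fl/fl LysMCre cells with a median of 7926 UMIs were kept, and the libraries shared 0 barcodes. Pgd, the deleted gene, was at 105 CPM (UMIs of the gene per 1000000 UMIs) in Pgd fl/fl macrophages and at 30.2 CPM in Pgd fl/fl LysMCre macrophages, a log2 ratio of -1.80 (-1.99 to -1.61), and at 27.3 and 32.4 CPM in T cells. Clusters were named from marker genes, and 3 that did not pass the naming rules are called by their leading genes: Cd8b1 and Cd8a, H2-M5 and Tcea3 (with Epcam and Cd207 also among its 10 leading genes), and Retnla and Lyz1. The B cell cluster was led by Cd79a, Ebf1 and Ms4a1. B cells were 15.8% (14.6% to 17.0%) of Pgd fl/fl cells (562 cells) and 1.25% (0.873% to 1.74%) of Pgd fl/fl LysMCre cells (35 cells), so the constant genes were read from very different numbers of B cells.

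B cells of both libraries carried the constant genes of unswitched B cells at similar summed levels. Plasma-like cells were kept cells with at least 10 Jchain UMIs and at least 3 of 12 plasma cell markers, and the cluster held 2 of them, both Pgd fl/fl. Without them, the 9 genes summed to 9260 CPM in 560 Pgd fl/fl B cells and 9784 CPM in 35 Pgd fl/fl LysMCre B cells, a log2 ratio of Pgd fl/fl LysMCre over Pgd fl/fl of 0.08 whose interval held 0 and reached up to 0.16. With those 2 cells included, the Pgd fl/fl level was 17965 CPM and the log2 ratio was -0.88 (-0.96 to -0.80), so 2 cells turned the direction. Igkc, the kappa constant gene, was the highest at 5170 CPM in Pgd fl/fl and 5903 CPM in Pgd fl/fl LysMCre B cells. A Pgd fl/fl B cell held a median of 16 Igkc UMIs (quartiles 10 and 26, highest 154), and a Pgd fl/fl LysMCre B cell a median of 22 (quartiles 12 and 27, highest 56). The ranges overlapped almost fully.

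Ighm was at 1610 CPM in Pgd fl/fl and at 2078 CPM in Pgd fl/fl LysMCre B cells, a log2 ratio of 0.37 (0.18 to 0.55). The median B cell had 5 Ighm UMIs in Pgd fl/fl (quartiles 3 and 8, highest 49) and 7 in Pgd fl/fl LysMCre (quartiles 3 and 8, highest 36). Ighd, the partner of Ighm on the same transcript in naive B cells, went the other way, with 646 CPM in Pgd fl/fl and 392 CPM in Pgd fl/fl LysMCre B cells and a log2 ratio of -0.72 (-1.16 to -0.31). Its median was 2 UMIs (quartiles 1 and 4, highest 13) in Pgd fl/fl and 1 UMI (highest 6) in Pgd fl/fl LysMCre cells. Cells with both Ighm and Ighd were 81.8% of the 560 Pgd fl/fl B cells and 74.3% of the 35 Pgd fl/fl LysMCre B cells, with overlapping intervals of 78.3% to 84.9% and 56.7% to 87.5%.

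The lambda genes were somewhat lower in Pgd fl/fl LysMCre B cells. Iglc2 was at 1112 CPM in Pgd fl/fl and 964 CPM in Pgd fl/fl LysMCre B cells, a log2 ratio of -0.21 (-0.48 to 0.06) whose interval held 0. Iglc3 was at 628 and 416 CPM, a log2 ratio of -0.60 (-1.02 to -0.20). Iglc1, which is no member but takes part in the lambda sum, was at 396 and 274 CPM. Among the switched genes, Ighg1 had 84 UMIs in 560 Pgd fl/fl B cells and 1 UMI in 35 Pgd fl/fl LysMCre B cells. Ighg2b had 61 UMIs, or 28.2 CPM, in Pgd fl/fl B cells and 0 UMIs in Pgd fl/fl LysMCre B cells, where 3 UMIs would be 23.5 CPM. Igha had 32 UMIs and 1 UMI. Jchain was near the limit of detection in these B cells, at 12.9 CPM in Pgd fl/fl (28 UMIs, found in 2.68% of cells) and 15.7 CPM in Pgd fl/fl LysMCre (2 UMIs, both in 1 cell of 35). A single UMI in the Pgd fl/fl LysMCre B cells was worth 7.84 CPM, so differences of the switched genes were not detectable at this depth.

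At a 2-fold limit, with at least 10 UMIs over both libraries and a gene at 0 UMIs in 1 library counted as past the limit, 0 of the 9 genes were higher and 2 were lower in Pgd fl/fl LysMCre B cells, Ighg1 and Ighg2b. Of all 8777 genes tested in B cells, 10.4% were at least 2-fold higher and 22.7% at least 2-fold lower, so the share of the 9 genes was near the background. The median log2 ratio was -0.60 over the 9 genes and -0.03 over all genes tested. The median of the 9 gave equal weight to Ighg1, Ighg2b and Igha, with 1, 0 and 1 UMIs in Pgd fl/fl LysMCre B cells. The summed level of the 9 genes had a log2 ratio of 0.08. Of the 20 B cell receptor genes, 0 were higher and 1, Cr2, was lower, with a median of -0.44. Cd79a, which carries the signal of the receptor into the cell, was at 2208 and 1764 CPM, and Cd79b, its partner, at 729 and 478 CPM. Of 9 plasma cell markers tested, 0 were higher and 1, Xbp1, was lower. Xbp1 had 60 UMIs in Pgd fl/fl and 1 UMI in Pgd fl/fl LysMCre, and the interval of its log2 ratio (-7.15 to 0.71) held 0. Of 10 genes of naive and mature B cells, Fcer2a, Cr2 and Fcmr were at least 2-fold lower. Fcmr, the receptor that binds IgM, was at 472 CPM in Pgd fl/fl and 220 CPM in Pgd fl/fl LysMCre B cells, and Fcer2a, the low-affinity IgE receptor, at 330 and 157 CPM. Of 10 tested genes of activated and germinal centre B cells, Cd83 and Cd86 were at least 2-fold higher. Among the lower ones Fas and Mybl1 had 27 and 18 UMIs in Pgd fl/fl and 0 UMIs in Pgd fl/fl LysMCre B cells. They were at 12.5 and 8.31 CPM in Pgd fl/fl, where 1 UMI in Pgd fl/fl LysMCre would be 7.84 CPM, so these differences were not detectable at this depth. Cd83, an activation marker, was at 581 and 1254 CPM, a log2 ratio of 1.11 (0.87 to 1.35), and Cd86, a costimulatory ligand, at 83.1 and 212 CPM, a log2 ratio of 1.35 (0.71 to 1.94). Of the other constant genes, Ighg2a was not in the table, and only Iglc1 had enough UMIs to be compared.

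Heavy chain use was read cell by cell. A B cell was called unswitched or switched when one of the groups Ighm and Ighd or Ighg1, Ighg2b, Ighg2c, Ighg3, Igha and Ighe held at least 3 UMIs and at least 80% of the UMIs of both. Unswitched cells were 92.1% (89.6% to 94.2%) of 560 Pgd fl/fl and 94.3% (80.8% to 99.3%) of 35 Pgd fl/fl LysMCre B cells. Switched cells were 1.61% (0.737% to 3.03%, 9 cells) in Pgd fl/fl and 0 of 35 in Pgd fl/fl LysMCre, which allows up to 10.0%. Of the 9 switched cells, 5 were led by Ighg1, 3 by Ighg2b and 1 by Ighg2c. These 9 cells held 0 Ighm and 0 Ighd UMIs, and 88.9% of them held Jchain, against 0.969% of the 516 unswitched Pgd fl/fl cells. Within the B cell cluster, heavy chain use outside plasma-like cells was thus almost wholly Ighm and Ighd in Pgd fl/fl. The 35 cells of Pgd fl/fl LysMCre showed the same, but are too few to exclude switched cells up to 10.0%.

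Light chains separated less cleanly. By the same rule, 41.8% (37.7% to 46.0%) of Pgd fl/fl B cells were kappa, 5.89% (4.09% to 8.18%, 33 cells) were lambda, and in 52.1% neither light chain reached 80%. In Pgd fl/fl LysMCre, 60% (42.1% to 76.1%) were kappa, 2.86% (1 cell) lambda, and in 37.1% neither reached 80%. The 33 lambda cells had a median of 0 Igkc UMIs and 8 Iglc2 UMIs. The 292 Pgd fl/fl cells in which neither reached 80% had a median of 15 Igkc, 4 Iglc2 and 2 Iglc3 UMIs, and the 234 kappa cells a median of 21 Igkc, 1 Iglc2 and 1 Iglc3 UMIs. Iglc2 was found in 66.7% of those kappa cells. With plasma-like and B-marker cells left out, it was found in 0.446% of T cells, 1.05% of macrophages and 1.54% of epithelial cells of the same library. These shares depended on the cells left out: all kept cells of the 3 classes held 107, 133 and 16 Iglc2 UMIs, against 5, 7 and 2 after leaving them out. The median depth of all kept cells was 4562, 12018 and 8158 UMIs in these classes and 3378 UMIs in B cells. Unswitched kappa cells were 37.1% (33.1% to 41.3%) of Pgd fl/fl and 54.3% (36.6% to 71.2%) of Pgd fl/fl LysMCre B cells.

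**Figure D1:**
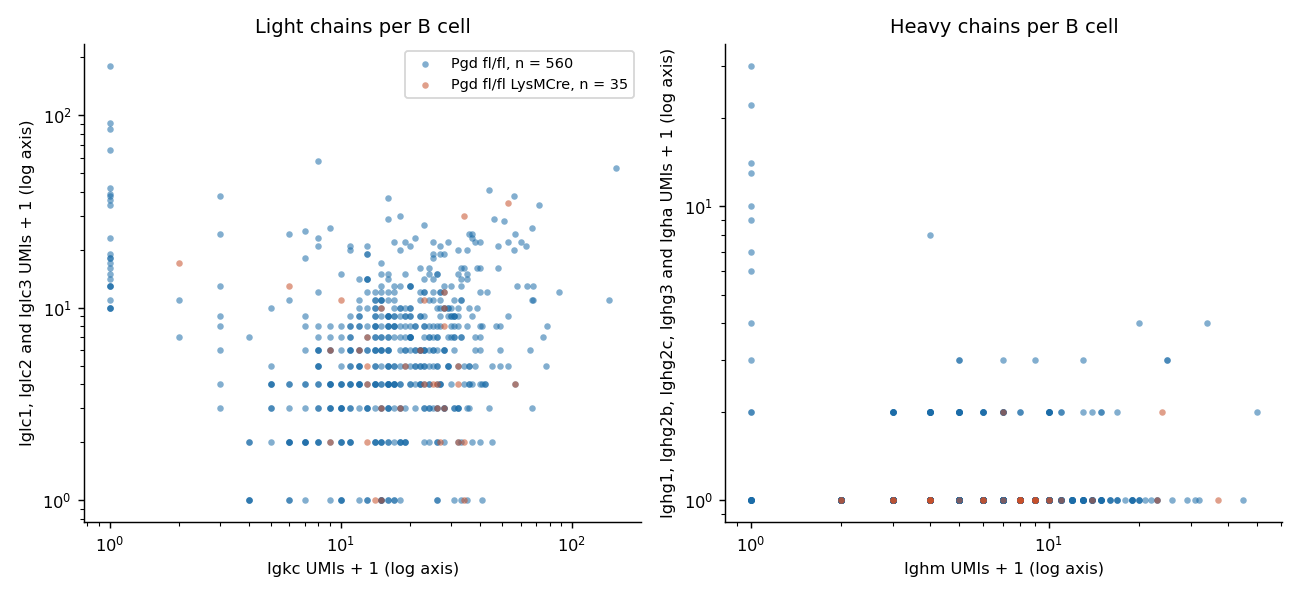
UMIs per B cell without plasma-like cells, Igkc against the sum of Iglc1, Iglc2 and Iglc3 (left) and Ighm against the sum of 5 switched heavy chain genes (right), both axes logarithmic after adding 1; each point is 1 of 560 Pgd fl/fl or 35 Pgd fl/fl LysMCre cells. Most cells had Igkc with a smaller lambda sum, the cells with 0 Igkc UMIs stood at the left edge, all of Pgd fl/fl, with 9 or more lambda UMIs, and Pgd fl/fl LysMCre cells lay within the cloud of Pgd fl/fl cells.

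Plasma-like cells were few and held most of the constant gene UMIs. By the definition above, 11 Pgd fl/fl cells and 2 Pgd fl/fl LysMCre cells were plasma-like, 0.309% (0.154% to 0.551%) and 0.0715% (0.00866% to 0.258%) of kept cells, with overlapping intervals. Of these 13 cells, 7 had 190 to 1044 Jchain UMIs and the other 6 had 10 to 18. The 3 cells just below the limit had 6, 5 and 5 Jchain UMIs. The 6 high cells of Pgd fl/fl held 64216 of the 91953 UMIs of the 9 genes in that library, 69.8%, and the 1 high cell of Pgd fl/fl LysMCre held 7958 of 15764, 50.5%. They also held 95.8% and 94.3% of the Jchain UMIs of their libraries. All other kept cells with Jchain had far fewer UMIs of it, and 3504 and 2770 cells had 0.

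Each of the 7 cells was led by 1 heavy chain gene, at 95.1% to 100% of its heavy chain UMIs, and by kappa, at 91.4% to 99.9% of its light chain UMIs. The cell with the most Jchain (1044 UMIs, Pgd fl/fl) had 4481 Igha and 11485 Igkc UMIs, and the 9 genes made up 52.3% of its 32806 UMIs. The next had 3631 Ighm, 4686 Igkc and 763 Jchain UMIs. The high cell of Pgd fl/fl LysMCre had 2361 Igha, 4962 Igkc and 626 Jchain UMIs, 35.1% of all its UMIs. Ighg1 led 3 Pgd fl/fl cells, with 4486, 577 and 962 UMIs beside 473, 356 and 190 Jchain UMIs, and Ighg2b led 1, with 2610 UMIs beside 195 Jchain UMIs. Igha, Ighm, Ighg1 and Ighg2b thus each led at least 1 cell, and Ighd was at 0 in all 7. Each of the 7 cells had 10 to 12 of the 12 plasma cell markers, among them Mzb1, a chaperone of immunoglobulin assembly, at 24 to 216 UMIs, and Xbp1, the transcription factor of the secretory program, at 7 to 37 UMIs. Ms4a1, a B cell surface marker that is lost in plasma cells, was at 0 in 6 and at 3 UMIs in 1.

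The 7 cells did not form a cluster of their own. The B cell cluster held 2, and macrophage clusters held 5. Those 5 also had 30 to 354 UMIs of the complement genes C1qa, C1qb and C1qc, against a median of 145 in other Pgd fl/fl macrophages and 0 in B cells, and the one of Pgd fl/fl LysMCre had 15 UMIs of Cd3d, Cd3e and Cd3g. In the 7 cells the oligonucleotide of the other library made up 1.53% to 30.7% of the counts of both. The cell at 30.7%, of Pgd fl/fl, had 152 counts of it beside 343 of its own. The medians over kept cells were 134 beside 1057 in Pgd fl/fl and 98 beside 1575.5 in Pgd fl/fl LysMCre. Whether the 7 barcodes held more than 1 cell was not tested. The 6 cells with 10 to 18 Jchain UMIs were of another kind. Of them, 5 lay in the cycling T cell cluster led by Pclaf and Hist1h1b, all of Pgd fl/fl. These 5 had 28 to 142 UMIs of the 9 genes, 9 to 15 Cd79a UMIs and 8 to 28 Ms4a1 UMIs, and 3 of the 5 were led by Ighg1 or Ighg2b. Their sums of Cd3d, Cd3e and Cd3g were 0, 0, 2, 13 and 15 UMIs. The last of the 6, of Pgd fl/fl LysMCre, lay in the epithelial cluster with 1047 Igkc, 42 Igha and 10 Jchain UMIs and 0 Mzb1 UMIs.

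**Figure D2:**
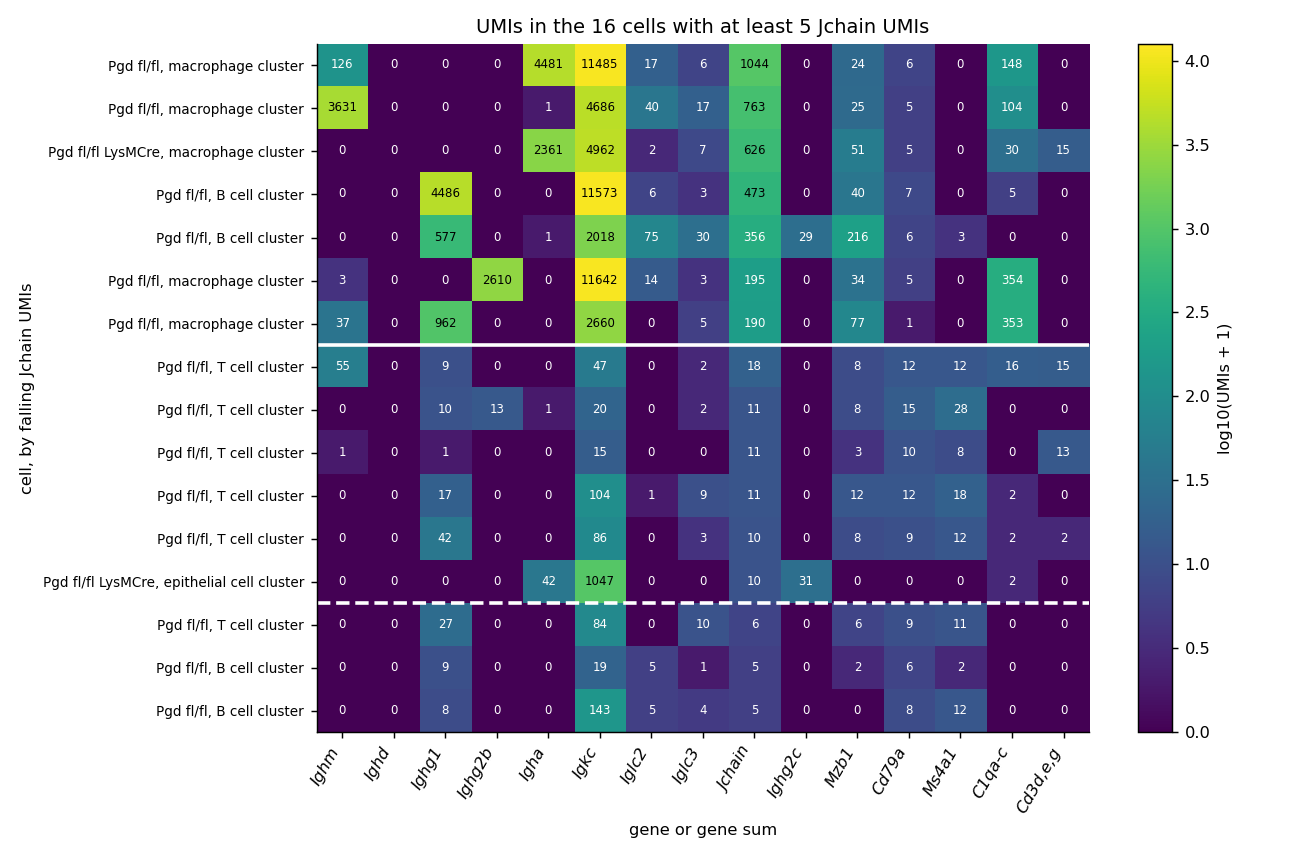
UMIs of the 9 genes, Ighg2c, plasma and B cell genes, and sums of macrophage and T cell genes in the 16 cells with at least 5 Jchain UMIs, 1 row per cell from the highest Jchain, coloured by log10 of UMIs plus 1. The 7 cells above the solid line had 190 or more Jchain UMIs and a single leading heavy chain, and the 3 cells below the dashed line were under the limit of 10.

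Most constant gene UMIs of the macrophage class lay in 5 of these barcodes. The 9 genes summed to 5102 CPM in Pgd fl/fl macrophages and 913 CPM in Pgd fl/fl LysMCre macrophages, a log2 ratio of -2.48 (-2.51 to -2.45). Without the plasma-like cells and without macrophages that held a UMI of a B cell marker such as Cd79a, Cd79b or Ms4a1, the sums were 143 and 124 CPM, a log2 ratio of -0.21 (-0.33 to -0.09). In all macrophages 8 of the 9 genes were at least 2-fold lower and 0 were higher in Pgd fl/fl LysMCre, beside 2.25% lower and 3.86% higher of 12871 genes. After leaving those cells out, 1 of 8 tested, Iglc2 with 7 and 3 UMIs, was 2-fold lower, beside 2.05% lower and 4.02% higher of 12686 genes. Igkc was then at 16.7 and 17.96 CPM, a log2 ratio of 0.10 (-0.23 to 0.44). With only the plasma-like cells left out it was at 43.7 and 33.2 CPM, and the macrophages with a B cell marker UMI held 66.1% and 51.3% of those Igkc UMIs. Ighm was at 106 and 79.5 CPM, a log2 ratio of -0.41 (-0.56 to -0.27). Igha was at 10.9 and 16.6 CPM, a log2 ratio of 0.60 (0.21 to 0.99). Of its 87 and 156 UMIs, 43 and 116 lay in the cycling macrophages led by Hist1h2ae and Ccnb1, at a log2 ratio of 0.62 (0.11 to 1.16), whereas the larger cluster led by Vcam1 and Mmp13 was at -0.23 (-0.92 to 0.46). Ighd, Ighg1, Ighg2b, Iglc2, Iglc3 and Jchain were all below 5 CPM in both.

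**Figure D3:**
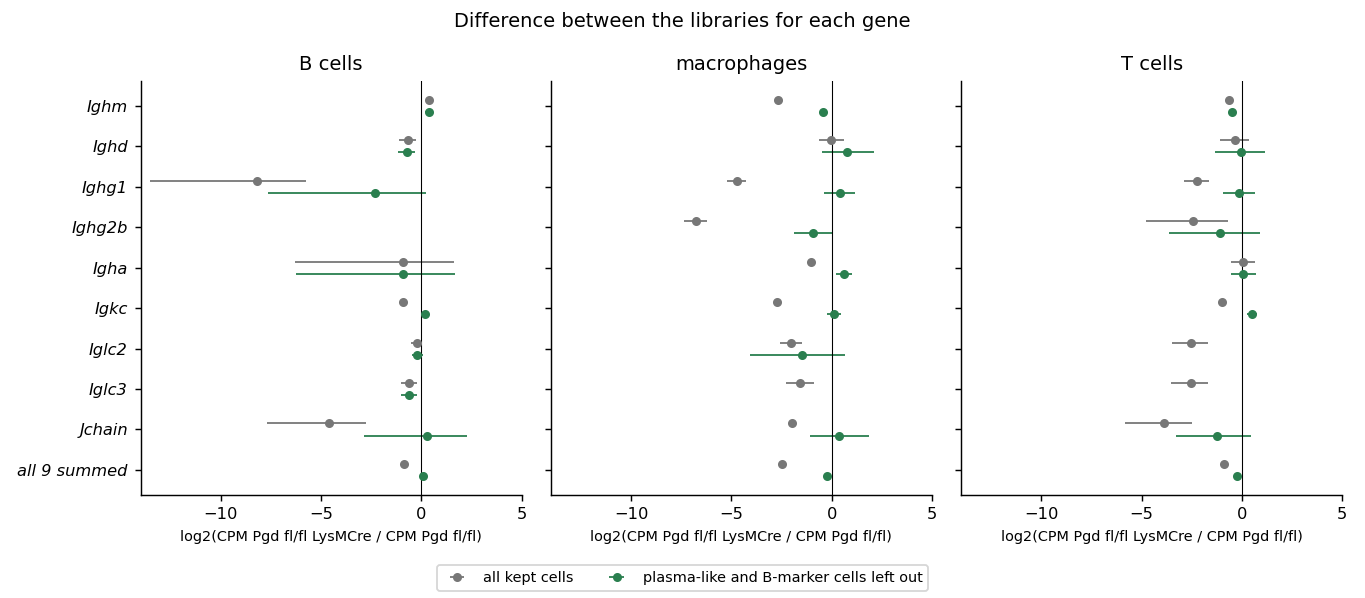
Log2 ratio of CPM in Pgd fl/fl LysMCre over Pgd fl/fl for each gene and for the sum of all 9, in B cells, macrophages and T cells, with exact 95% counting intervals, for all kept cells (grey) and without plasma-like cells and cells outside the B cell class with a B cell marker UMI (green). Genes with under 10 UMIs or with 0 UMIs in a library are not drawn. In macrophages the grey point of the sum lay at -2.48 and the green one at -0.21, while Ighd lay at -0.016 (grey) and 0.76 (green) with intervals that held 0.

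Outside B cells, Ighm had more UMIs than Igkc in every class drawn except the epithelial cells of Pgd fl/fl LysMCre (9 against 25 UMIs), once plasma-like and B-marker cells were left out. With plasma-like and B-marker cells left out, Igkc lay between 8.79 and 65.0 CPM in every class outside B cells, against 5170 and 5903 CPM in B cells. This range depended on leaving out B-marker cells: with only plasma-like cells left out, Igkc in Pgd fl/fl was at 204 CPM in the Retnla and Lyz1 cluster, 199 CPM in neutrophils and 171 CPM in NK cells or ILCs. Ighm reached higher and differed by class. The cluster led by H2-M5 and Tcea3 was at 279 CPM in Pgd fl/fl, the highest of these classes there, and at 236 CPM in Pgd fl/fl LysMCre. NK cells or ILCs were at 194 and 237 CPM and T cells at 216 and 155 CPM. Neutrophils were at 106 CPM (58.2 to 179, 14 UMIs) in Pgd fl/fl, an interval below the levels of both classes there. In Pgd fl/fl LysMCre neutrophils were at 164 CPM (109 to 238), an interval that held the levels of both. The order of these classes differed between the libraries, and NK cells or ILCs and the H2-M5 and Tcea3 cluster did not differ beyond counting error in Pgd fl/fl LysMCre. Epithelial cells were the lowest of the classes drawn, at 21.8 and 7.65 CPM.

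**Figure D4:**
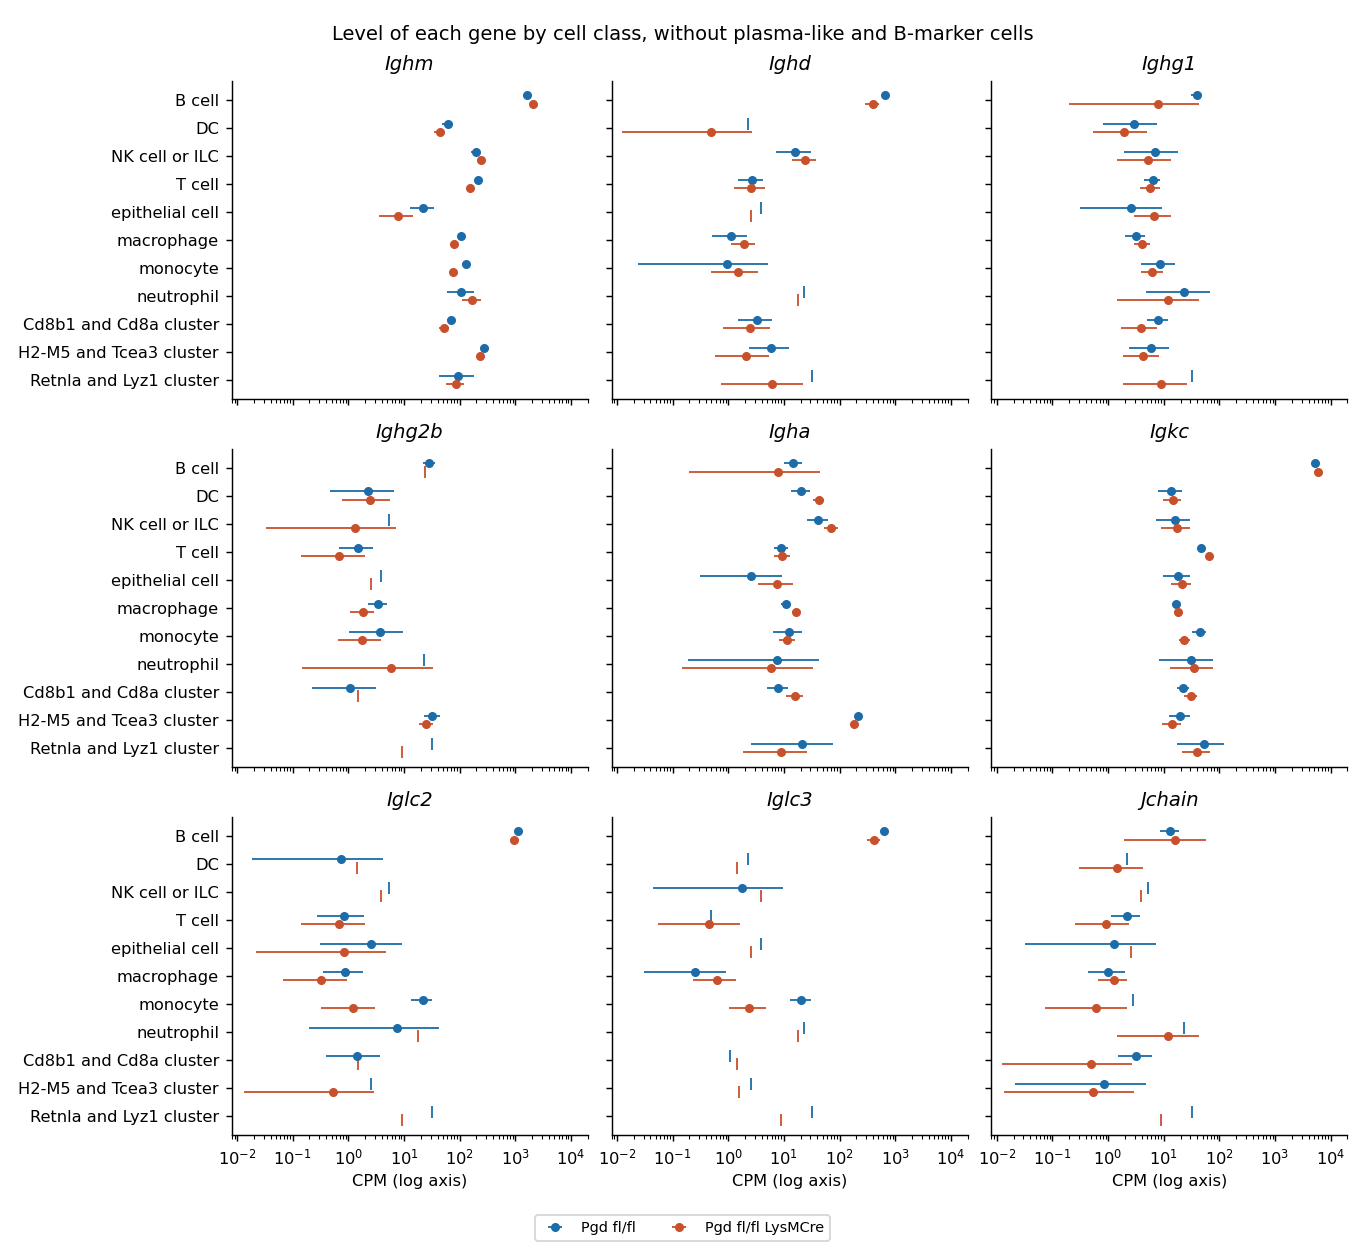
Level of each of the 9 genes in CPM (log axis) by cell class for each library, without plasma-like cells and without cells outside the B cell class that held a B cell marker UMI; points are pooled cells of 1 library, bars exact 95% Poisson intervals, and a tick without a point marks the level of 3 UMIs where 0 were counted. The mast cell or basophil class, with 16 cells of 1 library, is not drawn. Ighm, Ighd, Igkc, Iglc2 and Iglc3 were highest in B cells, whereas Igha was highest in the H2-M5 and Tcea3 cluster.

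Igha, the constant gene of IgA, was higher in the H2-M5 and Tcea3 cluster than in B cells. It was at 216 CPM (190 to 244) in 93 Pgd fl/fl cells and 179 CPM (160 to 199) in 140 Pgd fl/fl LysMCre cells of that cluster, against 14.8 CPM (10.1 to 20.9) in Pgd fl/fl B cells. It was found in 81.7% and 78.6% of the cells, with a middle value of 2 UMIs in both libraries and highest values of 11 and 10. With each cell thinned to 2000 UMIs, Igha was found in 39.8% (29.8% to 50.5%) and 32.4% (24.7% to 40.8%) of these cells, against 0% (up to 6.27%) and 2.47% (0.3004% to 8.64%) of epithelial cells, a class that should lack it and whose median depth was 8158 and 9644 UMIs beside 11936.5 and 13450 in the cluster. Ighm was found in 44.1% and 33.1% of the thinned cells of the cluster, against 7.02% and 1.23% of epithelial cells. Ighg2b was at 32.5 and 25.3 CPM in the cluster and at 28.2 CPM in Pgd fl/fl B cells, while Ighg1, whose gene lies between Ighm and Ighg2b, was at 5.98 and 4.22 CPM. Igkc was at 19.7 and 14.2 CPM in the cluster. Iglc2 and Jchain had at most 1 UMI and Iglc3 had 0 in each library, where 3 UMIs would be 2.56 and 1.58 CPM. Ighm, Igha and Ighg2b thus had the highest levels of the 9 genes there in both libraries. Of 6 genes tested in the cluster, 0 were 2-fold higher and 1, Ighd with 7 and 4 UMIs, was 2-fold lower in Pgd fl/fl LysMCre, beside 5.09% higher and 3.87% lower of 9721 genes.

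Smaller signals of the same kind lay in other classes. Igha was at 40.6 and 70.7 CPM in NK cells or ILCs, in which Ighd was also found, at 15.9 and 23.6 CPM. In DCs led by Xcr1 and Clec9a, Igha was at 29.9 and 63.8 CPM, and Ighg2c, no member, was at 21.6 and 16.8 CPM. In DCs led by Fscn1 and Ccl22, Ighg2c had 0 UMIs in Pgd fl/fl, where 3 UMIs would be 4.01 CPM, and 1 UMI in Pgd fl/fl LysMCre. In cycling macrophages led by Hist1h2ae and Ccnb1, Igha was at 49.6 and 76.5 CPM and Ighg2b at 20.8 and 6.595 CPM, against 5.91 and 5.05 CPM of Igha in macrophages led by Vcam1 and Mmp13. Among T cells, those led by Foxp3 and Il1rl1 were the highest, with 452 and 322 CPM of Ighm and 126 and 110 CPM of Igkc. With plasma-like and B-marker cells left out, that Igkc level was more than in other T cell clusters of the same library. It came with 17.6% and 16.9% of the cells, of which the highest had 10 and 13 UMIs. With only plasma-like cells left out, Igkc in Pgd fl/fl was higher in the cluster led by Pclaf and Hist1h1b, at 200 CPM against 175 CPM. The T cell class mixed these clusters in different shares in the libraries (472 and 52 cells in the cluster led by Lef1 and Dapl1), so its log2 ratio for Ighm of -0.47 (-0.61 to -0.34) was also taken within a cluster. It was -0.49 (-0.67 to -0.31) in the cluster led by Foxp3 and Il1rl1 and -0.44 (-1.03 to 0.10) in that led by Lef1 and Dapl1. Of 7 genes tested in T cells, 0 were 2-fold higher and 2, Ighg2b and Jchain with 12 and 17 UMIs over both libraries, were 2-fold lower, beside 4.11% higher and 3.53% lower of 11988 genes. In monocytes, Ighm was at 132 and 75.9 CPM and Igkc at 43.9 and 23.5 CPM. There 5 cells held 74.5% of the Igkc and 100% of the Iglc2 UMIs of Pgd fl/fl.

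The members stood in other ratios to each other outside B cells, with plasma-like and B-marker cells left out. There were 0.311 (0.2997 to 0.3235) Ighm UMIs per Igkc UMI in Pgd fl/fl B cells and 0.352 (0.305 to 0.405) in Pgd fl/fl LysMCre B cells. The ratio was 6.33 (5.27 to 7.66) and 4.43 (3.74 to 5.26) in macrophages, 4.70 (4.12 to 5.37) and 2.39 (2.08 to 2.76) in T cells, and 14.2 (9.28 to 22.7) and 16.6 (11.3 to 25.5) in the H2-M5 and Tcea3 cluster. The lowest ratios outside B cells were those of epithelial cells, at 1.21 (0.563 to 2.66) and 0.36 (0.148 to 0.797). The ratio thus differed between classes of a library beyond counting error, but its values depended on the cells left out. Over all kept T cells it was 1.65 (1.53 to 1.78) and 2.10 (1.86 to 2.38), which turned the order of the libraries, and over all kept NK cells or ILCs of Pgd fl/fl it was 1.38 (1.08 to 1.76) in place of 12.2. The B cell genes themselves were low in these classes: outside plasma-like cells, Cd79a was at 15.3 and 8.51 CPM in macrophages and at 20.1 and 8.19 CPM in T cells.

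Variable segments were counted too, and they separated the heavy chain UMIs of B cells from those of other classes. In Pgd fl/fl B cells 115 UMIs of 185 Ighv genes stood beside 5073 UMIs of heavy chain constant genes, 2.27 per 100 (1.87 to 2.72), and in Pgd fl/fl LysMCre B cells 6 stood beside 317, 1.89 per 100 (0.695 to 4.12). In all classes outside B cells together, with plasma-like and B-marker cells left out, 1 Ighv UMI stood beside 3812 heavy chain constant UMIs in Pgd fl/fl, 0.0262 per 100 (0.000664 to 0.146), and 2 beside 3661 in Pgd fl/fl LysMCre, 0.0546 per 100 (0.00662 to 0.197). The intervals of B cells and of the other classes together did not overlap in either library. In the H2-M5 and Tcea3 cluster there were 0 Ighv UMIs beside 637 and 855 constant UMIs, which allows up to 0.579 and 0.431 per 100. In the 7 high Jchain cells the value was 0.755 per 100 (0.630 to 0.898) in Pgd fl/fl and 0.424 (0.203 to 0.779) in Pgd fl/fl LysMCre. For kappa, 1.07 Igkv UMIs per 100 Igkc UMIs (0.889 to 1.28) in Pgd fl/fl B cells stood beside 0.673 (0.183 to 1.72) outside B cells, and these intervals overlapped. With plasma-like and B-marker cells left out, the pooled heavy chain UMIs outside B cells thus came almost without variable segment UMIs. For Igkc no difference was detectable at this depth.

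**Figure D5:**
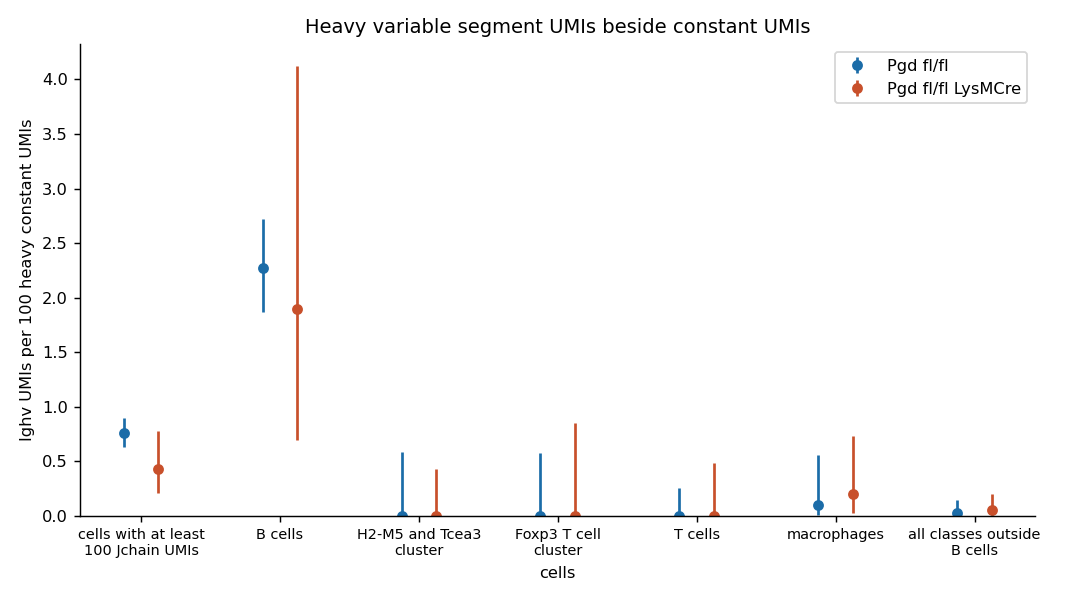
Ighv UMIs per 100 UMIs of heavy chain constant genes in 7 sets of cells of each library, with exact 95% Poisson intervals, without plasma-like cells and B-marker cells except in the first set. B cells stood at 2.27 and 1.89 and all classes outside B cells together at 0.0262 and 0.0546.

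Over all kept cells, the 9 genes summed to 3411 CPM in Pgd fl/fl and 554 CPM in Pgd fl/fl LysMCre, a log2 ratio of -2.62 (-2.65 to -2.60), and 8 of the 9 genes, all but Igha, were at least 2-fold lower, beside 3.52% lower and 4.43% higher of 15733 genes. The share of these UMIs that lay outside the B cell class was 56.9% of the Pgd fl/fl total and 92.1% of that of Pgd fl/fl LysMCre. Without plasma-like and B-marker cells it was 18.2% and 77.8%. In whole-library counts, fewer cells of a type and less RNA per cell cannot be told apart, and the sums over all kept cells include the 6 high Jchain cells of Pgd fl/fl, which held 69.8% of that library's UMIs of the 9 genes.

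The genes most like each member across 23 combinations of class and library were described by Pearson's r of log2(CPM + 5), with the points of a library sharing its depth. Iglc2 and Iglc3 were closest to Cd79a (r = 0.98 for both), Ighd to Fcmr (0.93), Cr2 (0.93) and Blk (0.92), and Igkc to Cd22 (0.88), Mzb1 (0.85) and Cd79a (0.83). Ighm was closest to Irs2 (0.83), Ighd (0.80) and Tmem243 (0.79), and Igha to Capn3 (0.84). Without plasma-like and B-marker cells, Igkc was close to Cd79a and Ms4a1 (r = 0.96 for both), and Ighm again had no B cell receptor gene among its 3 nearest, which were Tmem243 (0.86), Tsc22d3 (0.82) and Arhgap15 (0.81).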

How the data were processed

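The authors deposited, for each of 2 libraries, counts of unique molecules per gene and barcode made with Cell Ranger 6.1.2 on mm10, per the submitters' processing notes, which also name Seurat. Rows of 12 multiplexing oligonucleotides were kept only as a check of barcodes. Kept cells had 500 to 7500 genes and no more than 15% of UMIs from mitochondrial genes. Seurat 5.3.0 in R 4.3.3 normalised them and clustered them without integration (2000 variable genes, none of them immunoglobulin genes or Jchain, 30 principal components, 20 neighbours, resolution 0.8). A cluster was named when at least 3 markers of a type were detected in 25% of its cells and none of the naming rules on its 10 leading genes went against it. Some of these naming limits were set after the data were seen. No doublet caller was run; cells with markers of another class were left out in alternatives.

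UMIs were summed per class and library with numpy 2.4.6 and scipy 1.17.1 (Python 3.11.15) and given as CPM. Ratios are Pgd fl/fl LysMCre over Pgd fl/fl and have exact conditional binomial intervals, levels exact Poisson intervals and shares Clopper-Pearson intervals at 95%. With 1 library per genotype no test between genotypes was made. Shares of cells with a UMI were also taken after thinning to 2000 UMIs, which left out 137 and 147 shallower cells. Code for intervals was tested on simulated data. Named genes were the 9 members, fixed lists, and the 3 genes most like each member among those with at least 50 UMIs. The members and lists were chosen with earlier results of these data known. The counts of variable segments and the limit of 100 Jchain UMIs were added after the data were seen. Depth was 26959415 UMIs in Pgd fl/fl and 28447905 UMIs in Pgd fl/fl LysMCre kept cells. Reference tables were RefSeq on GRCm38.p6 and GENCODE vM39 transcripts, used for sequence only. Values of some genes of these lists are not reported here.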

Additional observations from a re-analysis of the deposited data

Results flagged for a closer look

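The 9 genes did not differ between the libraries in the same direction in every class, after plasma-like and B-marker cells were left out. With 1 library per genotype the differences between classes were not tested, and only the counting intervals of each log2 ratio of Pgd fl/fl LysMCre over Pgd fl/fl lay on opposite sides of 0. Ighm was higher in Pgd fl/fl LysMCre B cells (0.37) and lower in macrophages (-0.41), in T cells (-0.47) and in monocytes (-0.80). Igkc was higher in Pgd fl/fl LysMCre B cells (0.19) and T cells (0.50) and lower in monocytes (-0.90), where 5 cells held 74.5% of the Igkc UMIs of Pgd fl/fl and 31.6% of those of Pgd fl/fl LysMCre. The direction of Igkc in T cells depended on the cells left out: over all kept T cells the log2 ratio was -0.97 (-1.14 to -0.80), and within the T cell cluster led by Foxp3 and Il1rl1, without plasma-like and B-marker cells, it was -0.20 (-0.54 to 0.13).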

How the results depend on the processing

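No paired analysis was possible because there was 1 library per genotype, and no library could be left out. The values below are those that left the counting interval of the value reported, or, for counts of cells, differed from it by over 1.5 times. The B cell values here start from all B cells, at -0.88 on the log2 scale, and those of macrophages from -2.48. The alternatives that leave out plasma-like cells were chosen after seeing the data. With possible doublets left out, the log2 ratios were -2.15 for the 9 genes over all cells, -0.16 for the 9 genes in B cells, -0.21 for the 9 genes in macrophages, 0.40 for Ighg1 in macrophages, 0.60 for Igha in macrophages, 0.10 for Igkc in macrophages, 1.34 for Iglc3 in macrophages, 0.34 for Jchain in macrophages, -0.24 for the 9 genes in T cells, and the UMI share outside B cells of Pgd fl/fl was 21.5%, the B cell share of Pgd fl/fl was 12.2%, the plasma-like cells of Pgd fl/fl were 1, the UMI share outside B cells of Pgd fl/fl LysMCre was 84.3%, the plasma-like cells of Pgd fl/fl LysMCre were 0. Without the 5% deepest cells, the log2 ratios were -1.15 for the 9 genes over all cells, -0.12 for the 9 genes in B cells, 2.58 for the 9 genes in macrophages, 0.59 for Ighg1 in macrophages, 5.33 for Igha in macrophages, 4.20 for Igkc in macrophages, 0.18 for Iglc3 in macrophages, 6.19 for Jchain in macrophages, -0.69 for the 9 genes in T cells, and the UMI share outside B cells of Pgd fl/fl was 20.9%, the plasma-like cells of Pgd fl/fl were 4, the UMI share outside B cells of Pgd fl/fl LysMCre was 91%, the plasma-like cells of Pgd fl/fl LysMCre were 1. Without the 5 cells with most UMIs of the genes in each class, the log2 ratios were -2.31 for the 9 genes over all cells, -0.11 for the 9 genes in B cells, -0.42 for the 9 genes in macrophages, 0.52 for Ighg1 in macrophages, 0.56 for Igha in macrophages, 0.38 for Jchain in macrophages, -0.74 for the 9 genes in T cells, and the UMI share outside B cells of Pgd fl/fl was 23.2%, the plasma-like cells of Pgd fl/fl were 2, the UMI share outside B cells of Pgd fl/fl LysMCre was 83.5%, the plasma-like cells of Pgd fl/fl LysMCre were 0. After thinning to 2000 UMIs, the log2 ratios were -2.35 for the 9 genes over all cells, -0.0259 for the 9 genes in B cells, -1.82 for the 9 genes in macrophages, -0.55 for the 9 genes in T cells, and the UMI share outside B cells of Pgd fl/fl was 28.2%, the plasma-like cells of Pgd fl/fl were 5, the unswitched kappa share of Pgd fl/fl was 30.8%, the UMI share outside B cells of Pgd fl/fl LysMCre was 71.9%, the plasma-like cells of Pgd fl/fl LysMCre were 1. Scaled to a median ratio of 1, the log2 ratios were -2.69 for the 9 genes over all cells, -1.02 for the 9 genes in B cells, -2.55 for the 9 genes in macrophages, -0.98 for the 9 genes in T cells. Without plasma-like cells, the log2 ratios were -2.11 for the 9 genes over all cells, 0.0795 for the 9 genes in B cells, 0.28 for Jchain in B cells, -0.36 for the 9 genes in macrophages, 0.50 for Ighg1 in macrophages, 0.70 for Igha in macrophages, 0.36 for Jchain in macrophages, -0.67 for the 9 genes in T cells, and the UMI share outside B cells of Pgd fl/fl was 26.4%, the UMI share outside B cells of Pgd fl/fl LysMCre was 81.4%. Without plasma-like and B-marker cells, the log2 ratios were -2.23 for the 9 genes over all cells, 0.0795 for the 9 genes in B cells, 0.28 for Jchain in B cells, -0.21 for the 9 genes in macrophages, 0.40 for Ighg1 in macrophages, 0.60 for Igha in macrophages, 0.10 for Igkc in macrophages, 1.34 for Iglc3 in macrophages, 0.34 for Jchain in macrophages, -0.24 for the 9 genes in T cells, and the UMI share outside B cells of Pgd fl/fl was 18.2%, the UMI share outside B cells of Pgd fl/fl LysMCre was 77.8%. With classes taken from marker UMIs, the log2 ratios were -0.17 for the 9 genes in B cells, -0.23 for the 9 genes in macrophages, 0.19 for Ighg1 in macrophages, 0.27 for Igha in macrophages, 0.39 for Jchain in macrophages, -0.17 for the 9 genes in T cells, and the UMI share outside B cells of Pgd fl/fl was 81.6%, the B cell share of Pgd fl/fl was 10.9%, the UMI share outside B cells of Pgd fl/fl LysMCre was 94.8%. With immunoglobulin genes left in the clustering, the UMI share outside B cells of Pgd fl/fl was 56.5%. Of 302 alternative values for single genes, 199 stayed within the counting interval, and those that reversed a 2-fold difference are among the above. The summed ratio over all cells kept its direction in the alternatives run. The ratio in macrophages rested on 5 barcodes, and reversed without the 5% deepest cells, which left out the high Jchain cells in macrophage clusters of Pgd fl/fl but not that of Pgd fl/fl LysMCre. Depth limits the Pgd fl/fl LysMCre B cells, with 127556 UMIs in 35 cells.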
